A study of Mus musculus with 10 samples.

Results

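The promoters of the cytosolic ribosomal protein genes were examined in an open chromatin data set of mouse colon organoids. A gene was taken in when it was protein-coding and its symbol was Rpl or Rps followed by a number and at most 1 letter, or Rplp0, Rplp1 or Rplp2, so that kinases such as Rps6ka1 stayed out. This gave 79 of the 21938 protein-coding genes annotated in GENCODE release M21 on the mouse genome build GRCm38. Of these, 46 encode proteins of the large subunit, 30 proteins of the small subunit and 3 the stalk proteins. They lie on 19 chromosomes, with 4 on X, and 28 of them hold snoRNA genes within their bounds. The promoter was the stretch from 1000 bp before to 1000 bp after the start of the gene, and the peak that overlapped it was read in each of the 10 libraries.

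Every cell that divides or secretes needs ribosomes, and each ribosome needs 1 copy of nearly every one of these proteins. Their genes are therefore active in all cell types and are transcribed in step, usually from promoters without a TATA box at which transcription starts on a C inside a run of pyrimidines, the terminal oligopyrimidine (TOP) motif. The ETS factor GABP, Sp1 and YY1 are known to bind such promoters, and the TOP motif at the front of the mRNA lets mTOR and Larp1 control its translation. For these reasons they were taken as a yardstick for other promoters. The values of their peaks were compared between the groups, as given below. These values depend on the library as well, so whether the promoters are equally open in each cell was not tested.

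Omni-ATAC-seq, in which the transposase Tn5 cuts and tags open chromatin, had been run on 50000 live sorted cells per library from organoids grown out of crypts of the whole colon. WT organoids came from wildtype littermates and AHR KO organoids from mice with Ahr fl/fl alleles and Villin-Cre, which removes the ligand-activated transcription factor AHR in intestinal epithelium, all on C57BL/6. WENR was the growth medium, with Wnt3a-conditioned medium, EGF, Noggin and R-spondin1 as well as nicotinamide, A83-01 and SB202190, whereas d4 ENR was differentiation medium with EGF, Noggin and R-spondin1, taken 4 days after Wnt3a had been withdrawn. There were 2 libraries of WT WENR, 3 of AHR KO WENR, 3 of WT d4 ENR and 2 of AHR KO d4 ENR. The labels do not say which libraries came from separate mice or cultures, so p-values measure only the spread between these libraries.

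Sequences of 4 promoters are shown to illustrate what the members share at their starts and where they differ. They are from RefSeq (GRCm38.p6), run from 150 bases before the annotated start to 20 bases from it, and capitals mark the pyrimidine run and each match to the motifs searched. The pyrimidine run is the longest run of C and T that holds the start or comes within 10 bases of it. Rps23 and Rps27l stood for the most enriched and Rps28 and Rpl35 for the least enriched members among those with a sequence and with the RefSeq start inside the peak in all 10 libraries. Positions are counted from 0 at the start base, and the last 20 bases belong to the first exon.
Rps23, chr13:90922972-90923141, plus strand: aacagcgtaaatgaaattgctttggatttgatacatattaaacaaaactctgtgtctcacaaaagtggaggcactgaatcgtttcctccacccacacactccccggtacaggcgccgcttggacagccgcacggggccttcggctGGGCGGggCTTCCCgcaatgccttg
Rps27l, chr9:66945936-66946105, plus strand: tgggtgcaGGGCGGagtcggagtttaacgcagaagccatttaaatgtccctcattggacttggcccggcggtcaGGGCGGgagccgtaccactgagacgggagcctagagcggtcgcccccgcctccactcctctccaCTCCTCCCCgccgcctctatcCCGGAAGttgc
Rps28, chr17:33824543-33824712, minus strand: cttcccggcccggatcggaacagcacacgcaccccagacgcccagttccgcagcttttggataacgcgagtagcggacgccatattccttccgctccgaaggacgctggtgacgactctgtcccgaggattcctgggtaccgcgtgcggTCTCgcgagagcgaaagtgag
Rpl35, chr2:39005112-39005281, minus strand: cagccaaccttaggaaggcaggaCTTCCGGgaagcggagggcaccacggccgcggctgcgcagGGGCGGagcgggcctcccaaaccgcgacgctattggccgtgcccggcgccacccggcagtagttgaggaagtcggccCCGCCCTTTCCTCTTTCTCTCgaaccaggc
Rpl35, a large-subunit protein, had a pyrimidine run of 18 bases around its start, from position -7 to 10, which overlapped a reverse match to the Sp1 motif, and it held an ETS match further upstream. Rps27l, a paralog of Rps27, held Sp1 matches upstream and an ETS match at position 9, inside the transcribed part. Rps28 had a run of 4 bases only, and none of the 5 motifs was in the part shown. In Rps23, which sits near the decoding centre of the small subunit, the run of 6 bases began at position 3 and followed an Sp1 match.

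RefSeq promoters of 300 bases, 250 before and 50 from the start, were at hand for 59 of the 79 members and for 16538 protein-coding genes. They were searched on both strands for CCGGAAG, the core that ETS family factors such as GABP bind, and for the Sp1 motif GGGCGG. The other motifs were the E-box CACGTG, to which Myc and Max bind, and the YY1 motif, spelled AAGATGG, whose front can overlap the end of the ETS motif. The TATA box was searched as TATAAA. The ETS motif CCGGAAG was in 39.0% of the members against 12.4% of all promoters, and AAGATGG was in 13.6% against 6.49%. GGGCGG was in 55.9% against 48.5%, CACGTG in 8.47% against 8.08% and TATAAA in 8.47% against 12.8%. A start on C followed by 4 pyrimidines was found in 20.3% of the members and 2.19% of all promoters, and the pyrimidine run reached at least 8 bases in 44.1% against 13.5%. The first share takes the annotated start base as exact. A run that begins a few bases away is left out of it, such as the 14 bases from position 2 in Rpl13a. It is therefore not the share of members with a TOP motif. The run had a median of 6 bases in the members, from 2 to 21, and of 4 bases in all promoters, while the median GC content was 57% in both. The plot of sequence features shows these shares side by side.

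**Figure D1:**
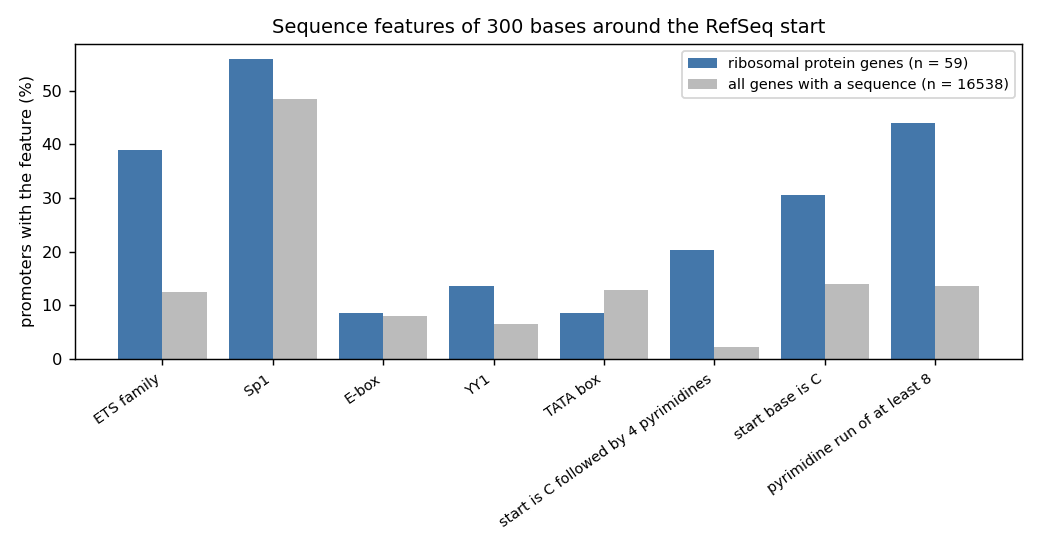
Percent of promoters that held each sequence feature, for the 59 ribosomal protein genes with a RefSeq promoter and for all 16538 protein-coding genes with one (bars from 0). The bars stand furthest apart at CCGGAAG (39.0% against 12.4%) and at a pyrimidine run of at least 8 bases (44.1% against 13.5%), and closest at CACGTG.

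In every library 73 or 74 of the 79 members had a peak at the start of the gene, which is 92.4 to 93.7%, whereas the share of all protein-coding genes fell from 60.4 to 61.2% in WENR to 52.4 to 58.3% in d4 ENR. A peak was present in all 10 libraries for 73 members, and 5 members had none in any library. Rpl3l, Rpl10l and Rpl39l, which are known from muscle or testis, were among those 5, and the nearest peak was at least 774773 bp away from Rpl10l. The paralog Rps27l, in contrast, had a peak in all 10 libraries and was among the 4 most enriched members. Rps2 and Rpl17 were the other members without a peak, and Rps10 had 1 in 7 of 10 libraries.

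The result for Rps2 and Rps10 depended on where the gene was taken to begin. The start with most transcripts was the one with the largest number of protein-coding transcripts of the gene beginning within 100 bp, not necessarily a majority. Rps2 starts at chr17:24718116 in the gene record, but its start with most transcripts is chr17:24720063, 1947 bp further on. There a peak with a fold enrichment of 3.52 to 5.58 was called in all 10 libraries. The start of Rps10 with most transcripts, chr17:27635244, also had a peak in all 10 libraries, with a fold enrichment of 4.44 to 6.70. For Rpl17, whose gene start is also the start with most transcripts, the nearest peak was 1456 to 1699 bp away in every library. At the start with most transcripts 74 members had a peak in all 10 libraries. The peak read for Rps24 at the gene start, chr14:24487125, which it shares with Polr3a, had a fold enrichment of 3.09 to 4.03. The peak 3556 bp further on, at its start with most transcripts, had 4.50 to 6.36. In Rpl18 the order was the other way round, with 3.52 to 5.31 at the gene start and 1.54 to 2.30 in the 9 libraries with a peak at the later start.

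For each peak the authors give its pileup, the mean height of stacked fragments over the peak, its fold enrichment, which is that height over the background expected around it in that library, and its ends. The pileup is given here per 1000000 fragments of the library and called the scaled pileup. In the following, levels are given on these linear scales and differences as log2, and the 73 members with a peak in all libraries are set beside all 11270 protein-coding promoters with such a peak. These members passed because all groups had a peak, so a promoter that closed in a group would not be among them. Since a broad peak is averaged over its whole length, its fold enrichment falls when it is joined to weaker flanks and rises when it is split.

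The scaled pileup was lower at the members in d4 ENR than in WENR, whereas no member fell in fold enrichment past the test. The library medians of fold enrichment over the 73 members were 5.30 and 5.24 in WT WENR, 5.41, 5.43 and 5.17 in AHR KO WENR, 4.59, 6.29 and 6.19 in WT d4 ENR, and 5.27 and 5.79 in AHR KO d4 ENR. WT d4 ENR replicate 1 was thus the lowest of all 10 libraries while the other two of its group were the highest, so that this group ranged over all the others. The group means were 5.27 ± 0.0437 (SD, n = 2), 5.34 ± 0.147 (n = 3), 5.69 ± 0.956 (n = 3) and 5.53 ± 0.370 (n = 2) in the same order, and without WT d4 ENR replicate 1 its group mean was 6.24.

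The median scaled pileup was 4.24 and 4.72 in WT WENR, 4.47, 4.87 and 4.72 in AHR KO WENR, 1.47, 1.78 and 1.94 in WT d4 ENR, and 2.43 and 2.95 in AHR KO d4 ENR. The 5 WENR libraries lay above all d4 ENR libraries, and AHR KO d4 ENR was above WT d4 ENR with no overlap. The group means were 4.48 ± 0.339 (SD, n = 2), 4.69 ± 0.198 (n = 3), 1.73 ± 0.239 (n = 3) and 2.69 ± 0.364 (n = 2). The median width of the peaks was also lowest in WT d4 ENR and next in AHR KO d4 ENR, with all WENR libraries above. It was 1380 and 1429 bp in WT WENR, 1350, 1341 and 1420 bp in AHR KO WENR, 1030, 962 and 1063 bp in WT d4 ENR, and 1300 and 1223 bp in AHR KO d4 ENR. The medians over all promoters lay close to those of the members in each library, as the plot of values by library shows.

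**Figure D2:**
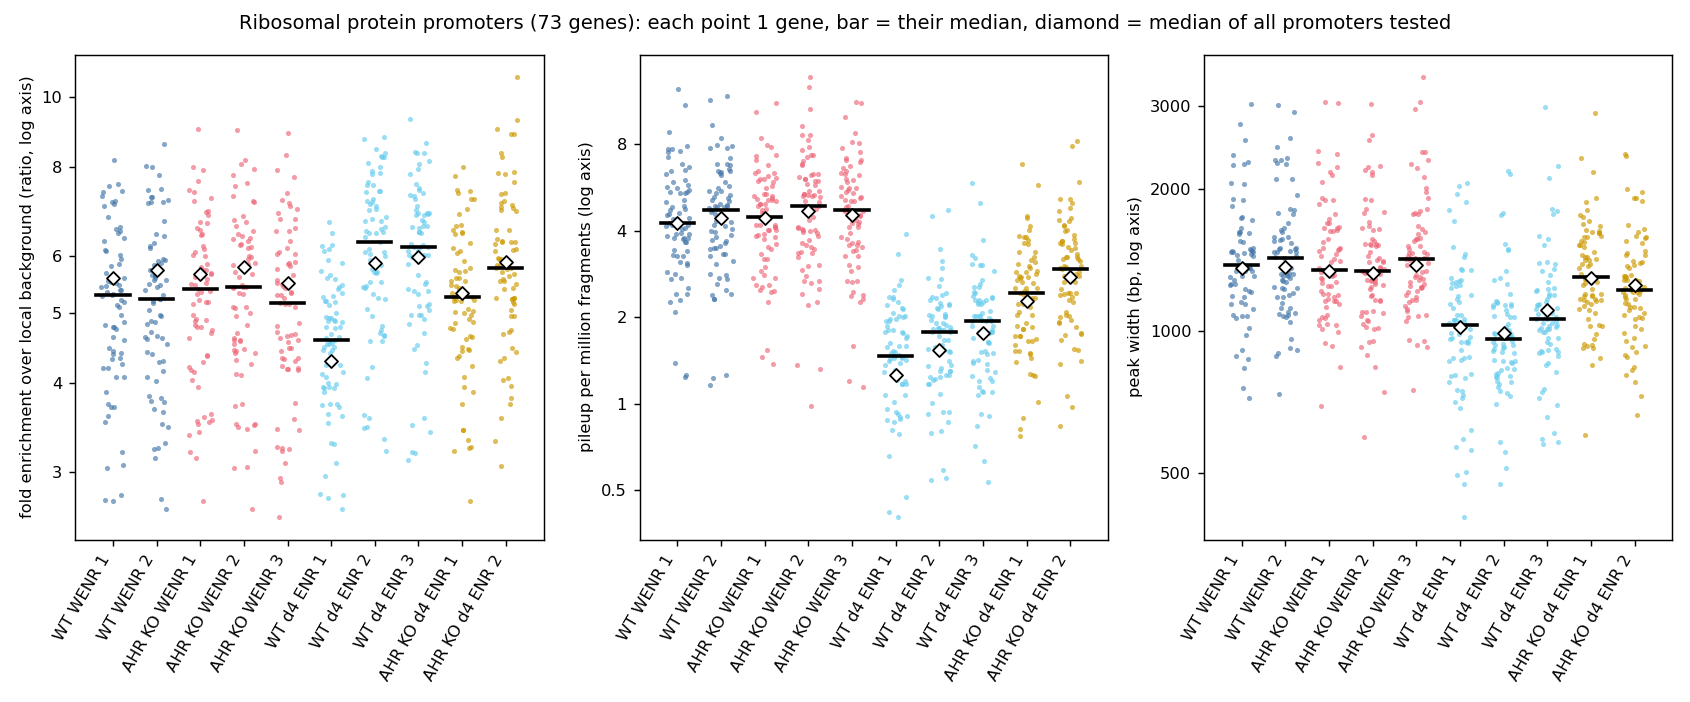
Fold enrichment, scaled pileup and peak width in bp of the 73 ribosomal protein promoters with a peak in all 10 libraries (points), by library. Bars mark the median of the members and diamonds the median of all 11270 promoters. Pileup and width are lower in d4 ENR, most so in WT, while the medians of fold enrichment stay between 4.59 and 6.29.

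The narrowing touched both sides of the start. The median peak reached 468 to 499 bp upstream and 791 to 855 bp downstream in the 5 WENR libraries. In WT d4 ENR it reached 351 to 430 bp upstream and 593 to 649 bp downstream, and in AHR KO d4 ENR 429 to 478 bp and 733 to 788 bp. The start itself lay inside the peak at 70 to 73 of the 73 members in every library, so the peaks drew in around the start and stayed on it.

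The libraries differed in other respects that moved with the pileup. WENR libraries had 41686181 to 49126792 fragments and d4 ENR libraries 30354729 to 36307860, and the mean fragment was 235 to 255 bp long in WENR, 156 to 200 bp in WT d4 ENR and 202 to 221 bp in AHR KO d4 ENR. Peaks held 63.0 to 68.6% of the coverage in WENR, 33.8 and 44.2% in AHR KO d4 ENR, and 14.1, 24.4 and 30.9% in WT d4 ENR, with the lowest share and the fewest peaks, 33433, in WT d4 ENR replicate 1. Of 12 colon epithelium markers 11 or 12 had a promoter peak in each library, with a summed scaled pileup of 69.7 to 77.5 in WENR, 17.6 to 28.1 in WT d4 ENR and 36.4 to 41.6 in AHR KO d4 ENR, and of 9 leukocyte markers at most 1 had one. Of 10 markers of mesenchyme and endothelium 4 or 5 had a peak in WENR, with a summed scaled pileup of 4.39 to 5.51, and 1 or 2 in d4 ENR, with 0.690 to 1.03. The promoter of Ahr had a peak in all libraries, which does not test the deletion. The part that these differences had in the results was not tested, except that the pileup was also divided by fragment length below. In bulk samples fewer cells with an open promoter and less opening per cell cannot be told apart.

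The question of how WT organoids change on differentiation was addressed by d4 ENR against WENR in WT. By scaled pileup all 73 members fell, with a median log2 difference of -1.42, a level 0.374-fold that in WENR, and a range from -1.99 to -0.92. The test was limma over all 11270 promoters with Benjamini-Hochberg adjustment, and it called 99.4% of all promoters, 99.3% lower, whose median was -1.48, so the ribosomal protein promoters moved with the others. With each library centred on its median over all promoters, 12 members were higher and 3 lower, with a median of 0.11, against 28.1% of all promoters called, and with the scaled pileup also divided by the mean fragment length the median was -0.92. All 73 members had every d4 ENR library below both WENR libraries, as did 99.3% of all promoters.

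The deepest falls were at Rpl35 and at Rpl7, both of the large subunit. The scaled pileup of Rpl35 was 6.51 and 6.39 in WT WENR, 6.47, 6.79 and 6.73 in AHR KO WENR, 1.43, 1.66 and 1.81 in WT d4 ENR, and 3.37 and 3.44 in AHR KO d4 ENR. The 4 groups of Rpl35 fell into 3 tiers, with both WENR groups together at the top, AHR KO d4 ENR in between and WT d4 ENR at the bottom. In WT the log2 difference was -1.99 ± 0.146 (SE), with adjusted p = 9.53e-08 by limma. Rpl7 had 8.85 and 9.33 in WT WENR, 8.41, 10.6 and 9.93 in AHR KO WENR, 2.07, 2.18 and 2.70 in WT d4 ENR, and 4.50 and 5.15 in AHR KO d4 ENR, and its log2 difference in WT was -1.98 ± 0.165 (limma adjusted p = 1.34e-07). Both peaks also hold the start of another gene, Arpc5l and Rdh10.

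The smallest fall was at Rps12, a small-subunit protein. Its scaled pileup was 3.77 and 3.69 in WT WENR, 4.46, 4.00 and 3.80 in AHR KO WENR, 2.21, 1.96 and 1.77 in WT d4 ENR, and 2.52 and 2.66 in AHR KO d4 ENR. The order of the groups was that of Rpl35, but the steps were smaller, with a log2 difference in WT of -0.92 ± 0.154 (limma adjusted p = 3.18e-05). The stalk protein genes, whose products recruit the elongation factors, had high levels throughout. Rplp0 had a scaled pileup of 7.89 and 7.77 in WT WENR, 7.80, 8.59 and 8.74 in AHR KO WENR, 2.16, 2.57 and 3.28 in WT d4 ENR, and 4.14 and 5.91 in AHR KO d4 ENR.

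By fold enrichment 4 of 73 members were higher in WT d4 ENR than in WT WENR and none was lower, against 14.1% of all promoters called, 5.42% higher and 8.67% lower. The median log2 difference of the members was 0.07, with a range from -0.32 to 0.53, and that of all promoters -0.04. Groups did not overlap at 11 members with d4 ENR above and at 4 with d4 ENR below, beside 12% and 23.1% of all promoters. The count rested on single libraries: it was 29 without WT d4 ENR replicate 1, 2 without WT d4 ENR replicate 2, and 0 without either of the WT WENR libraries. All promoters had 41.7%, 12% and 4.69 to 5.49% called in these fits. With each library centred on its median over all promoters, 27 members were higher and none lower, against 43.4% of all promoters called in either direction.

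Rpl28, whose peak was the narrowest by its mean log2 width over the 10 libraries, led the 4 that rose. Its fold enrichment was 3.04 and 3.23 in WT WENR, 3.14, 3.49 and 3.23 in AHR KO WENR, 3.94, 5.23 and 4.46 in WT d4 ENR, and 3.88 and 4.06 in AHR KO d4 ENR. All d4 ENR libraries of Rpl28 were above all WENR libraries, and the log2 difference in WT was 0.53 ± 0.133 (limma adjusted p = 0.0065). Rps12 had 4.42 and 4.02 in WT WENR, 5.33, 4.62 and 4.29 in AHR KO WENR, 5.26, 7.11 and 5.99 in WT d4 ENR, and 5.26 and 5.06 in AHR KO d4 ENR. Its rise in WT was 0.53 ± 0.160 (limma adjusted p = 0.0235), while AHR KO WENR and AHR KO d4 ENR overlapped.

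Rps28 was the other small-subunit gene that rose, from one of the lowest levels of all members. Its fold enrichment was 2.79 and 2.67 in WT WENR, 3.20, 3.05 and 3.09 in AHR KO WENR, 3.94, 4.06 and 3.49 in WT d4 ENR, and 3.25 and 3.74 in AHR KO d4 ENR. The log2 difference in WT was 0.49 ± 0.121 (limma adjusted p = 0.00562). Rps28 is the member printed above with the short pyrimidine run and none of the motifs in the part shown. Outside that part, the 300 bases searched held a TATAAA match. Rpl12, in the stalk base of the large subunit, had 4.07 and 3.80 in WT WENR, 4.04, 4.42 and 4.17 in AHR KO WENR, 4.58, 5.70 and 6.22 in WT d4 ENR, and 4.65 and 4.71 in AHR KO d4 ENR. The groups of Rpl12 did not overlap between media in either genotype, and the log2 difference in WT was 0.47 ± 0.149 (limma adjusted p = 0.0300). The peaks of Rps28 and Rpl12 also hold the starts of Ndufa7 and Lrsam1.

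The lowest differences were at Rpl36a, on X, and Rpl6, each -0.32 with adjusted p of 0.246 and 0.306 by limma. Rpl36a had a fold enrichment of 6.37 and 5.93 in WT WENR, 6.53, 6.37 and 6.08 in AHR KO WENR, 3.94, 5.83 and 5.14 in WT d4 ENR, and 4.23 and 5.64 in AHR KO d4 ENR. All d4 ENR libraries of Rpl36a lay below all WENR libraries in both genotypes, with the lowest values in replicate 1 of each genotype.

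By peak width 47 of 73 members were narrower in WT d4 ENR than in WT WENR and none wider, against 55.1% of all promoters called, 55% narrower. The median log2 difference was -0.41 for the members and -0.35 for all promoters, and 63 members had no overlap between the groups, as did 82.1% of all promoters with d4 ENR below. With each library centred on its median over all promoters, 4 members were wider and 7 narrower, against 23% of all promoters called. Without WT WENR replicate 1 the count of narrower members was 19 and without WT WENR replicate 2 it was 21, beside 19.1% and 18.7% of all promoters. Rpl36, of the large subunit, changed most. Its width was 2281 and 2265 bp in WT WENR, 1030, 2197 and 2395 bp in AHR KO WENR, 592, 760 and 753 bp in WT d4 ENR, and 919 and 1109 bp in AHR KO d4 ENR. AHR KO WENR replicate 1 was near the d4 ENR libraries here, and the log2 difference in WT was -1.71 ± 0.332 (limma adjusted p = 0.00651).

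**Figure D3:**
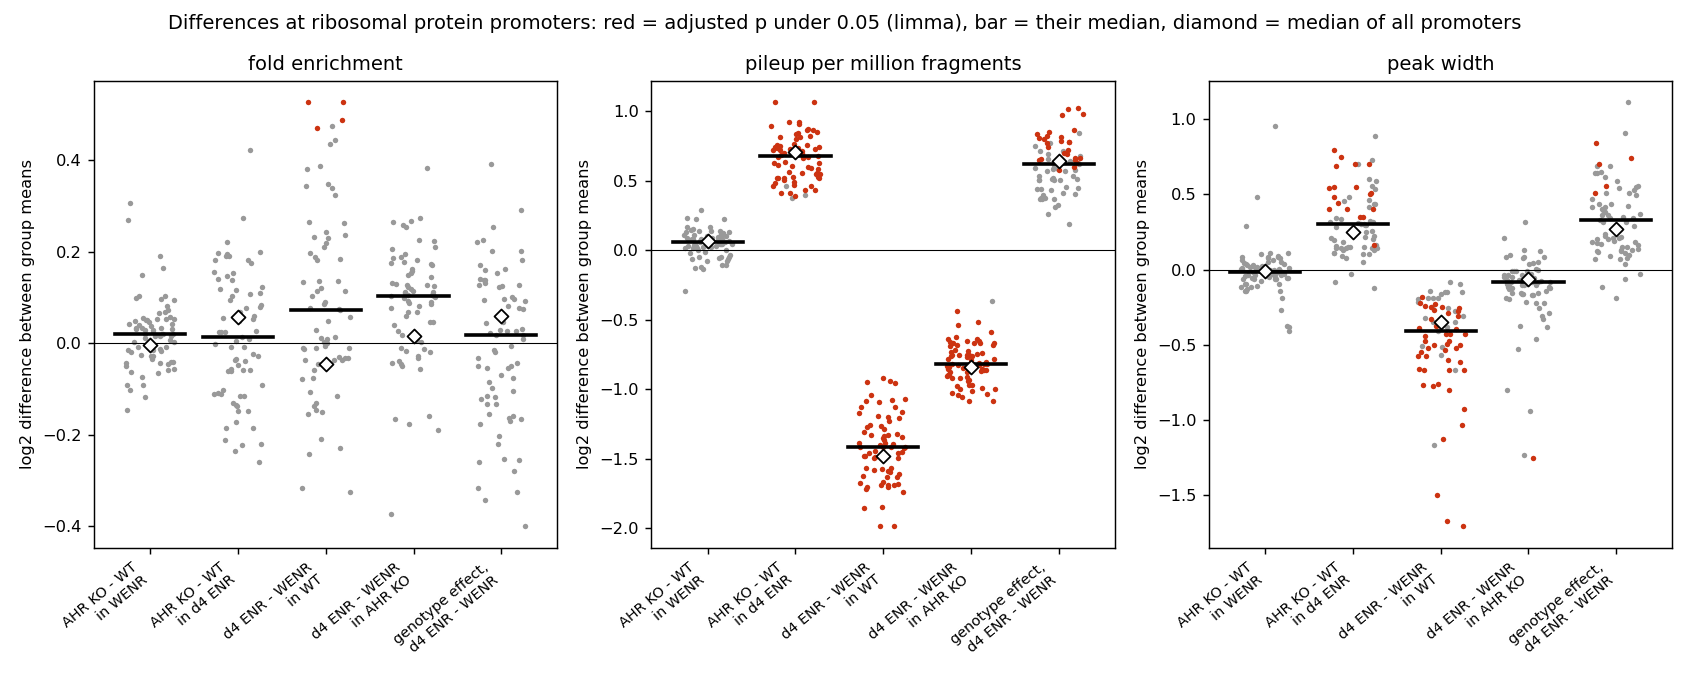
Log2 differences of the 73 ribosomal protein promoters (points) in the 4 pairwise comparisons and in the difference between media of the genotype effect, for fold enrichment, scaled pileup and peak width. Red points had a limma adjusted p under 0.05, bars mark the median of the members and diamonds that of all 11270 promoters. The pileup is lower at 73 of 73 members for d4 ENR against WENR in WT and higher at 70 of 73 for AHR KO against WT in d4 ENR, and the bars lie close to the diamonds.

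In AHR KO organoids the scaled pileup fell on differentiation at 72 of 73 members, against 96.3% of all promoters called, 95.9% lower. The median log2 difference was -0.82, a level 0.568-fold that in WENR, and all promoters had -0.84. The groups did not overlap at all 73 members, and at 97.3% of all promoters with d4 ENR below. Centred on the library medians no member was called, with a median of 0.04 and 5.44% of all promoters called, and divided by fragment length 36 members were lower with a median of -0.59 and 52.6% of all promoters called. Rps4x, the X-linked small-subunit gene, was the member not called. Its scaled pileup was 1.23 and 1.16 in WT WENR, 1.54, 0.978 and 1.14 in AHR KO WENR, 0.475, 0.545 and 0.710 in WT d4 ENR, and 0.889 and 0.977 in AHR KO d4 ENR. The lowest AHR KO WENR library and the highest AHR KO d4 ENR library nearly met. Its log2 difference was -0.36 ± 0.211 (limma adjusted p = 0.110).

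No member passed the test for fold enrichment in this comparison, against 2.17% of all promoters called by limma, and 3 members had an unadjusted p under 0.05. The median log2 difference was 0.10, and 0.02 for all promoters. All d4 ENR libraries lay above all WENR libraries at 22 members and below them at 4, beside 26.7% and 19.6% of all promoters. Rpl23a, of the large subunit, had the largest rise in value, 0.38 ± 0.139 (limma adjusted p = 0.177).

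By width 1 member was narrower in AHR KO d4 ENR than in AHR KO WENR, against 2.1% of all promoters called, 2.01% narrower, and the median was -0.08 for the members and -0.07 for all promoters. The groups did not overlap at 4 members with d4 ENR wider and 31 with d4 ENR narrower, beside 6.19% and 38.1% of all promoters. That member was Rps4x, with 2534 and 2307 bp in WT WENR, 1897, 2536 and 2391 bp in AHR KO WENR, 868, 772 and 657 bp in WT d4 ENR, and 1114 and 806 bp in AHR KO d4 ENR. Each WENR library had a peak of Rps4x wider than each d4 ENR library, and the log2 difference in AHR KO was -1.25 ± 0.183 (limma adjusted p = 0.0108). The count moved when single libraries were left out. It was 3 without AHR KO WENR replicate 1, 2 without AHR KO WENR replicate 2 and 0 without AHR KO WENR replicate 3. All promoters had 1.96%, 1.67% and 1.4% called in these fits.

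AHR KO was compared with WT in each medium to ask what the loss of AHR changes. In WENR no member was called by any of the 3 measures. For fold enrichment 0% of all promoters were called by limma, for scaled pileup 0% and for width 0.133%. Members with an unadjusted p under 0.05 numbered 0, 0 and 1 in the same order, and the medians of the members were 0.02, 0.06 and -0.02 on the log2 scale. Over all promoters 28, 106 and 148 had an unadjusted p under 0.05.

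The largest rise in fold enrichment in WENR was at the small-subunit gene Rps9. It had a fold enrichment of 4.25 and 4.15 in WT WENR, 6.15, 5.43 and 4.19 in AHR KO WENR, 4.48, 7.16 and 6.19 in WT d4 ENR, and 5.59 and 5.78 in AHR KO d4 ENR. Its peak was 2744 and 2910 bp wide in WT WENR, 1069, 2603 and 3458 bp in AHR KO WENR, 1038, 925 and 1052 bp in WT d4 ENR, and 1093 and 1123 bp in AHR KO d4 ENR. The AHR KO WENR library with the narrow peak was also the one of highest fold enrichment, and the log2 difference in fold enrichment was 0.31 ± 0.180 (limma adjusted p = 1). Rpl6, of the large subunit, went the other way in that library, replicate 1, with a width of 2169 bp against 874 to 953 bp in the other WENR libraries and a fold enrichment of 5.37 against 6.91 to 7.80.

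In d4 ENR 70 of 73 members had a higher scaled pileup in AHR KO organoids and none a lower one, against 91.6% of all promoters called by limma. The median log2 difference was 0.68, 1.60-fold, with a range from 0.38 to 1.06, and 0.71 for all promoters. At 70 members the genotypes did not overlap, with AHR KO above, as at 89.5% of all promoters. Without AHR KO d4 ENR replicate 2 the count was 25, beside 46.4% of all promoters. Centred on the library medians no member was called and the median was -0.06, with 1.41% of all promoters called. Divided by fragment length no member was called either and the median was 0.41, with 0.0355% of all promoters called.

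The members of largest difference were again Rpl7 and Rpl35, each 1.06 on the log2 scale and 2.09-fold higher in AHR KO d4 ENR, with limma adjusted p of 0.000606 and 0.000566. Rps7, Rps26 and Rps27, all of the small subunit, were the 3 not called. Rps26 had a scaled pileup of 2.42 and 2.40 in WT WENR, 2.27, 2.2 and 2.44 in AHR KO WENR, 1.31, 0.937 and 1.20 in WT d4 ENR, and 1.26 and 1.73 in AHR KO d4 ENR. The d4 ENR groups of Rps26 overlapped, and the log2 difference was 0.38 ± 0.189 (limma adjusted p = 0.0679). The other two had 0.40 and 0.46, with limma adjusted p of 0.0836 and 0.0522.

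No member differed between the genotypes in d4 ENR by fold enrichment, against 0.364% of all promoters called by limma, and 2 members had an unadjusted p under 0.05. The median log2 difference was 0.01, and 0.06 for all promoters. AHR KO was above WT with no overlap at 3 members and below at none, beside 10.4% and 3.72% of all promoters. Without WT d4 ENR replicate 1 there were 11 members past the threshold, against 12% of all promoters, and centred on the library medians 5, all lower in AHR KO, against 9.7% of all promoters called. The extremes were Rps4x, at 0.42 ± 0.176 (limma adjusted p = 0.398), and Rpl15, at -0.26 ± 0.172 (limma adjusted p = 0.724). Rps4x had a fold enrichment of 3.30, 4.57 and 5.50 in WT d4 ENR and 5.43 and 6.28 in AHR KO d4 ENR, where the highest WT library reached past the lowest AHR KO library, and Rpl15 had 6.11, 8.49 and 7.58 against 6.10 and 6.13, where the genotypes overlapped as well.

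By width 18 of 73 members were wider in AHR KO d4 ENR than in WT d4 ENR and none narrower, against 21.1% of all promoters called, with a median log2 difference of 0.31 for the members and 0.25 for all promoters. Groups did not overlap at 47 members, beside 59.6% of all promoters. The count was 4 without AHR KO d4 ENR replicate 1, 10 without AHR KO d4 ENR replicate 2 and 28 without WT d4 ENR replicate 3, beside 5.55%, 12% and 46.6% of all promoters. Centred on the library medians it was 4, beside 5.58% of all promoters. Among the 18 were Rpl11, which with Rpl5 binds Mdm2 when ribosome assembly is disturbed, Rps3, at the mRNA entry channel, Rps6, the target of the S6 kinases, and Rplp1 of the stalk. The peak of Rpl11 was 1359 and 1284 bp wide in WT WENR, 1331, 1357 and 1415 bp in AHR KO WENR, 781, 810 and 909 bp in WT d4 ENR, and 1524 and 1358 bp in AHR KO d4 ENR. WT d4 ENR stood apart from the other groups, which overlapped, and the log2 difference between the genotypes was 0.79 ± 0.0828 (limma adjusted p = 0.00077).

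Whether the genotype effect differed between the media was tested as an interaction. By scaled pileup 28 of 73 members had a larger difference between AHR KO and WT in d4 ENR than in WENR, against 45.1% of all promoters called, with a median of 0.62 on the log2 scale and 0.64 for all promoters. This count was 0 without AHR KO d4 ENR replicate 2, AHR KO WENR replicate 1, AHR KO WENR replicate 3 or either WT WENR library, 7 without WT d4 ENR replicate 2, 14 without AHR KO WENR replicate 2, 47 without AHR KO d4 ENR replicate 1 and 57 without WT d4 ENR replicate 3. The share of all promoters called moved with it, from 0% where no member was called to 19.1, 27.9, 57.6 and 78% in the order given. By width 5 members passed, against 4.64% of all promoters, 4.61% in this direction, namely Rpl11, Rpl13, Rpl15, Rpl28 and Rplp1, with a difference of 0.51 to 0.84, and the count was 1 without either WT WENR library or AHR KO WENR replicate 2, 2 without AHR KO WENR replicate 1, AHR KO WENR replicate 3 or AHR KO d4 ENR replicate 1, and 20 without WT d4 ENR replicate 3, beside 2.22 to 3.13% of all promoters in the former fits and 25.1% in the last. By fold enrichment no member passed limma's test, 0 had an unadjusted p under 0.05, and 0.0266% of all promoters were called. The 5 comparisons share libraries, so their values are not independent of each other.

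When the ribosomal protein promoters served as the yardstick within a library, the picture depended on the measure. All promoters had a median fold enrichment of 1.06 and 1.10 times that of the members in WT WENR, 1.05, 1.07 and 1.07 in AHR KO WENR, 0.935, 0.933 and 0.968 in WT d4 ENR, and 1.01 and 1.02 in AHR KO d4 ENR. The 4 groups did not overlap in this ratio, except for the 2 WENR groups, and it was below 1 in WT d4 ENR only. For 17619 regions away from promoters with a peak in all libraries, the ratio to the members was 0.886 and 0.917 in WT WENR, 0.891, 0.880 and 0.880 in AHR KO WENR, 0.708, 0.737 and 0.781 in WT d4 ENR, and 0.813 and 0.848 in AHR KO d4 ENR. The order of the groups was the same.

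By pileup the ratios set the groups less apart. All promoters had 1 and 0.937 times the median pileup of the members in WT WENR, 0.987, 0.964 and 0.961 in AHR KO WENR, 0.858, 0.863 and 0.909 in WT d4 ENR, and 0.938 and 0.937 in AHR KO d4 ENR. The regions away from promoters had 0.449 to 0.484 in WENR, 0.378 to 0.501 in WT d4 ENR and 0.451 and 0.466 in AHR KO d4 ENR, so these groups overlapped. The local background that the peak caller had used at the members, taken as pileup over fold enrichment and divided by the mean coverage of the genome, was 6.06 and 6.57 in WT WENR, 6.68, 6.61 and 6.52 in AHR KO WENR, 2.91, 3.27 and 3.23 in WT d4 ENR, and 3.75 and 4.48 in AHR KO d4 ENR. The fold enrichment is a ratio to a background that was itself lower in d4 ENR, and most of all in WT.

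**Figure D4:**
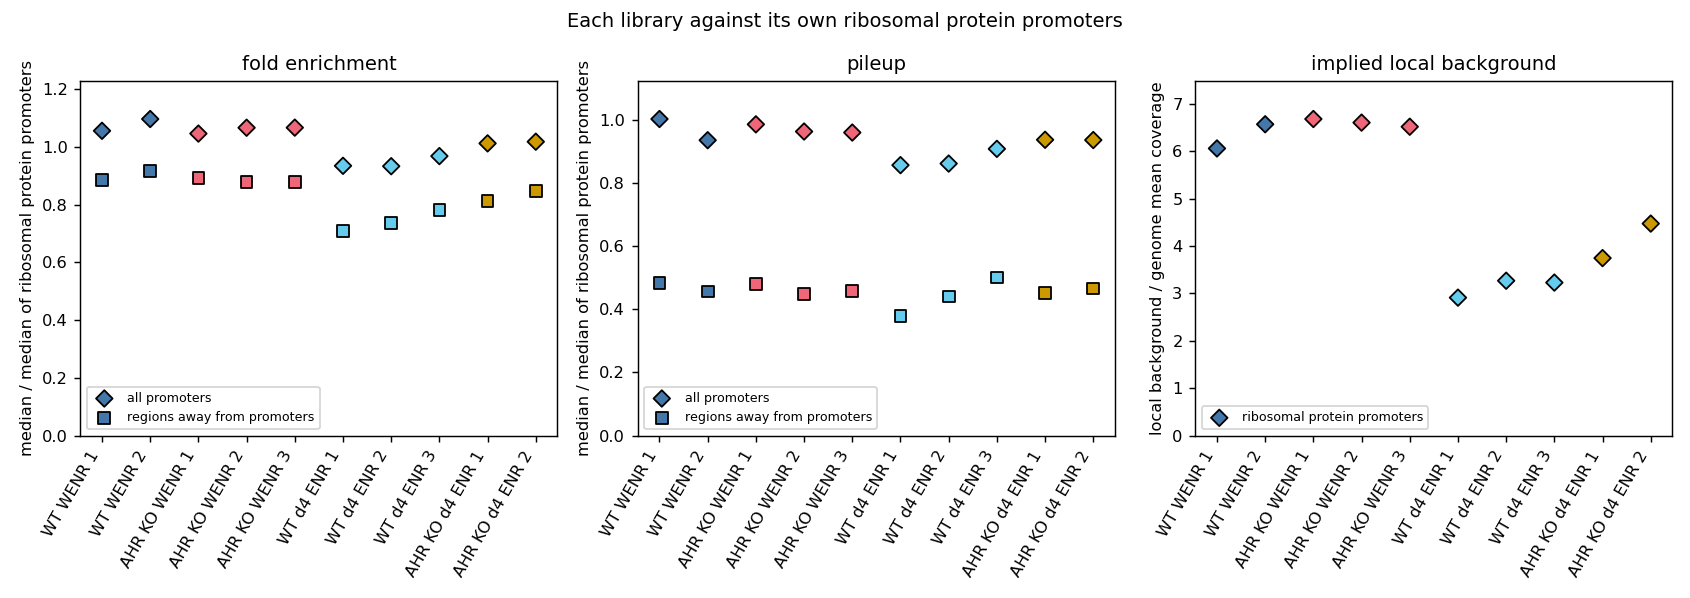
Ratios with the ribosomal protein promoters as the yardstick, by library: the median of all promoters and of 17619 regions away from promoters over the median of the 73 members, for fold enrichment and for pileup, and the local background at the members over the mean coverage of the genome. The background ratio is 6.06 to 6.68 in WENR and 2.91 to 4.48 in d4 ENR.

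Among themselves the members spread a little less than promoters at large. The SD of log2 fold enrichment over the 73 members was 0.310 to 0.393 in the libraries, and 0.356 to 0.450 over all promoters, with the members lower in each library. Between libraries of a group the median SD of log2 fold enrichment was 0.167 for the members and 0.176 for all promoters, so a ribosomal protein promoter was about as variable between replicates as any other. The steadiest members were Rpl35, Rpl10a and Rps24, with an SD of 0.048, 0.058 and 0.061, and the least steady Rps7, Rps4x and Rps9, with 0.265, 0.263 and 0.258.

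The rank of the members by fold enrichment was largely kept between libraries, and that by width less so. Spearman's rho over the 73 members, which share depth and sequence composition in each library, was 0.842 to 0.967 for fold enrichment within groups and 0.741 to 0.910 between media, and for width 0.367 to 0.755 between media. Rpl21, of the large subunit, was the most enriched member on average, with 8.19 and 8.62 in WT WENR, 9.03, 9 and 8.91 in AHR KO WENR, 6.20, 8.09 and 9.32 in WT d4 ENR, and 7.35 and 10.7 in AHR KO d4 ENR. Rpl36, also of the large subunit, was among the least enriched, with 2.75 and 3.14 in WT WENR, 3.53, 3.04 and 2.91 in AHR KO WENR, 2.79, 3.22 and 4.27 in WT d4 ENR, and 3.25 and 3.57 in AHR KO d4 ENR. Rpl21 was above Rpl36 in every library. Rps23, Rps27l and Rpl5 stood beside Rpl21 at the top, and Rps14 and Rps28 beside Rpl36 near the bottom. The heat map of fold enrichment shows all 73.

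**Figure D5:**
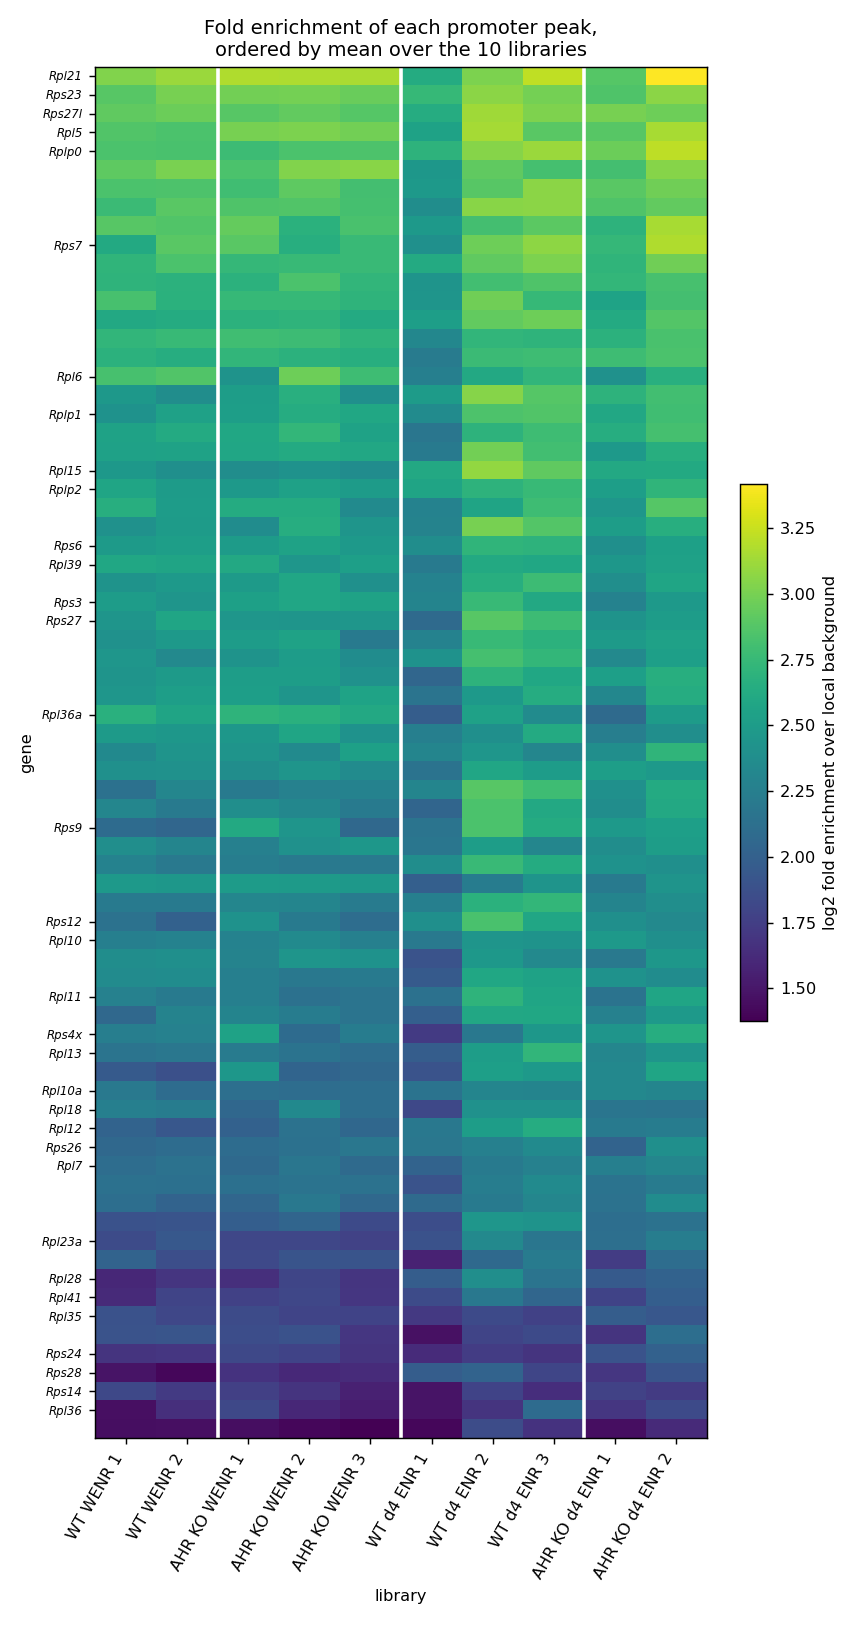
Log2 fold enrichment (colour) of the 73 ribosomal protein promoters (rows, ordered by their mean) in the 10 libraries (columns). Genes described in the text are labelled. Rpl21 at the top is above Rpl36 near the bottom in each column, and WT d4 ENR replicate 1 is darker in the upper rows than the others.

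Large-subunit and small-subunit genes were similar in fold enrichment, whereas the 3 stalk genes stood higher. The mean of the library medians for 42 large-subunit genes was 5.23 in WT WENR, 5.24 in AHR KO WENR, 5.56 in WT d4 ENR and 5.44 in AHR KO d4 ENR, and for 28 small-subunit genes 5.28, 5.37, 5.76 and 5.59. The 3 stalk genes had 5.90, 6.01, 6.81 and 6.5, with narrower peaks of 785 to 1020 bp. The 4 X-linked genes, Rpl10, Rpl36a, Rpl39 and Rps4x, had a scaled pileup of 2.59 in WT WENR, 2.48 in AHR KO WENR, 0.886 in WT d4 ENR and 1.30 in AHR KO d4 ENR, and 69 autosomal members 4.6, 4.80, 1.74 and 2.71. Rpl10, which joins the large subunit late, was the exception among them, with 5.45 and 5.31 in WT WENR and 1.57 to 1.78 in WT d4 ENR. Their fold enrichment was 5.4, 5.51, 5.11 and 5.59, beside 5.27, 5.32, 5.77 and 5.52 for the autosomal members.

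The 16 members whose peak also held the start of another protein-coding gene had a lower fold enrichment, 4.48 in WT WENR, 4.49 in AHR KO WENR, 4.77 in WT d4 ENR and 4.95 in AHR KO d4 ENR, than the 57 without, with 5.4, 5.53, 5.91 and 5.66. The 26 genes with snoRNA genes inside had 5.29, 5.31, 5.67 and 5.36, near the whole set. Among the 52 members with a RefSeq start inside the peak in all libraries, the 20 with CCGGAAG had 5.37, 5.37, 6 and 5.68 and the 32 without had 5.43, 5.50, 5.71 and 5.53. By mean log2 width over the 10 libraries, the widest peaks were those of Rpl41, at 2058 to 3053 bp, and Rpl7, at 1955 to 2374 bp, which both share the peak with a neighbour.

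Other gene sets of protein synthesis and turnover were read in the same way. In WT d4 ENR against WT WENR the median log2 difference in fold enrichment was -0.14 for 76 mitochondrial ribosomal protein genes, with 1 higher and 1 lower, and -0.14 for 35 proteasome subunit genes, with 3 lower. It was 0.10 for 25 translation factor and other TOP genes, with 1 higher, -0.01 for 30 ribosome biogenesis genes, with 1 higher and 1 lower, and 0.10 for 12 regulators of ribosomal protein genes, with 2 higher and 2 lower. Over all promoters the median was -0.04, with 5.42% called higher and 8.67% lower, and no difference between these sets was tested. In AHR KO against WT in d4 ENR none of these sets had a member called by fold enrichment in limma's test, and by pileup 72 of 76, 35 of 35, 24 of 25, 27 of 30 and 11 of 12 were higher, in the order given, against 91.6% of all promoters, with medians of 0.70, 0.65, 0.62, 0.67 and 0.73.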

How the data were processed

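The authors trimmed reads with Trim Galore, aligned them to GRCm38 with BWA in nf-core/atacseq and ran MACS 2.2.7.1 on single libraries in broad mode, with no control, q cutoffs of 0.1 (broad) and 0.05 (narrow) and a local background of 10000 bp. Replicates were not pooled. The deposited pileup is a coverage signal in fragments that is not scaled for depth, and the deposited fold enrichment is the ratio of the pileup to the local background of the same library. The deposited scores also hold the −log10 of p and q, which were used here only to rank peaks within a library or to filter them. Fragment numbers and lengths were read from the header of each peak list. No read counts were used here, and limma on peak values takes the place of the study's count test.

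Libraries were grouped by their labels. The peak with the largest overlap, of at least 1 bp, with the window of 1000 bp on each side of the gene start in GENCODE M21 was taken for each protein-coding gene. Log2 values of 11270 promoters with a peak in all 10 libraries were fitted with limma 3.58.1 (R 4.3.3) with an intensity trend, 1 mean for each of the 4 groups and no block, and adjusted by Benjamini-Hochberg over all of them at 0.05. The fit was tested on simulated data with independent noise for each promoter and library. Those data held no shift shared by a whole library, so the test does not cover such shifts. Python 3.11.15 with scipy 1.17.1, pandas 2.3.3, numpy 2.4.6 and, for plots, matplotlib 3.10.9 gave the other values. The members, gene lists and tests were chosen with earlier results of these data known. Depth is given as fragments per library, and the peak lists hold no read counts from which an error of a single value could be had.

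Genes were named by a rule on missing peaks, paralogs, the highest and lowest fold enrichment and width, the largest changes in fold enrichment, the spread within groups and the X chromosome. Some genes that the rule takes are not reported here. Members named for pileup or width changes, the stalk genes and those past the threshold in a small count were chosen after their values were seen. The rule for printed sequences would have taken genes such as Rpl21 and Rpl36, which have no sequence in the table used, and the next members were taken instead, among those whose RefSeq start is in the peak. Alternatives were another window, overlap, peak choice, start, filter and scaling, a replicate block and leaving out each library.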

Additional observations from a re-analysis of the deposited data

Results flagged for a closer look

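The genotype effect on the ribosomal protein promoters differed between the media by the interaction test of limma. It did so for the pileup per 1000000 fragments at 28 of 73 members, with a larger difference between AHR KO and WT in d4 ENR than in WENR at each of them, and for peak width at 5 members, also larger in d4 ENR. Both shares lay near those of all promoters, 45.1% for pileup and 4.64% for width, and with each library centred on its median over all promoters no member passed for either measure.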

How the results depend on the processing

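A window of 500 bp, an overlap of at least 200 bp, the peak of highest pileup, a peak in at least 5 libraries and the start with most transcripts (added after the data were seen) changed none of the 30 medians and counts by more than the limits set, which were 1 SD between libraries and 1.5 times for a count. A −log10 q of at least 5 left the count for width in AHR KO d4 ENR against WENR at 0 in place of 1.

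Most pileup results depended on the scaling. With each library centred on its median over all promoters, the median log2 pileup turned to -0.064 for AHR KO against WT in d4 ENR, 0.11 for d4 ENR against WENR in WT and 0.040 in AHR KO, with 0, 15 and 0 members called beside 1.41%, 28.1% and 5.44% of all promoters, and the interaction was -0.056 with 0 called beside 0.0177%. For width the medians became, in the same order, 0.014, -0.019, 0.0017 and 0.027, with 4, 11 and 0 members called for the first, second and last, beside 5.58%, 23% and 1.62% of all promoters. For fold enrichment 5, 27 and 4 members were called for AHR KO against WT in d4 ENR, d4 ENR against WENR in WT and in AHR KO, beside 9.7%, 43.4% and 12.4%. With the scaled pileup divided by fragment length, its median was 0.41 with 0 called, -0.92, -0.59 with 36 called beside 52.6% of all promoters, and 0.34 with 0 called for the interaction. With pileup not scaled, it was -1.93 in WT, -1.14 in AHR KO and 0.80 for the interaction with 60 called beside 81.5%. The cause of these shifts beyond the scaling itself was not tested.

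Leaving out single libraries gave these ranges of members called. For fold enrichment they were 0 to 11 for AHR KO against WT in d4 ENR, 0 to 29 for d4 ENR against WENR in WT and 0 to 1 in AHR KO, and the median of the interaction was -0.15 to 0.083. For pileup they were 25 to 72 (median 0.51 to 0.81) for AHR KO against WT in d4 ENR and 0 to 57 (median 0.44 to 0.78) for the interaction. For width they were 4 to 28 (median 0.23 to 0.37), 19 to 50, 0 to 3 and, for the interaction, 1 to 20 (median 0.22 to 0.38). Where a group of 2 lost a library, the lone one was assumed to vary like the others.

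Deviations of same-numbered libraries from their group means correlated at -0.034 to 0.254 across genotypes and -0.105 to 0.011 between media of 1 genotype for fold enrichment, at -0.040 to 0.228 and -0.040 to 0.075 for pileup, and at -0.028 to 0.091 and -0.016 to 0.0062 for width. Not every pair was over 0.1, and the labels do not say whether a number marks a shared mouse or culture, so the libraries were not treated as paired. With a replicate block 56 members passed the interaction for pileup, 1 that for width and 0 the width change in AHR KO, beside 79.4%, 3.68% and 0.0177% of all promoters. The block changed no other count by over 1.5 times.

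Groups of 2 and 3 libraries and averages over whole peaks limit what can be seen at a single promoter, and a peak can be joined or split in a library without a change in its summit.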

Other observations

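The share of all coverage in peaks that lay in the members' peaks was 0.306 to 0.319% in the WENR libraries, 0.318 to 0.439% in WT d4 ENR, and 0.329 and 0.340% in AHR KO d4 ENR. Ranked by q within each library's list, the median member stood at percentile 87.6 to 89.8 in WENR and 87.0 to 89.0 in d4 ENR. Over all promoters with a peak in all 10 libraries the median was 89.0 to 89.7 in WENR and 81.3 to 88.2 in d4 ENR.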
